A study of Mus musculus with 6 samples.

Results

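The genes described here encode the proteins of the cytosolic ribosome. They were taken as the symbols that start with Rpl or Rps followed by a digit, together with Rplp0, Rplp1, Rplp2 and Rpsa, leaving out the Rps6k kinases. The rule found 91 of 32285 annotated genes. Of these, 77 are canonical ribosomal proteins (46 of the large subunit, the stalk included, and 31 of the small subunit), 6 are paralogs (Rpl22l1, Rps27l, Rpl39l, Rpl3l, Rpl10l and Rpl36al), 6 are retrogenes or pseudogenes (Rps27rt, Rpl10-ps3, Rpl9-ps1, Rpl36a-ps1, Rpl36-ps4 and Rpl9-ps6), and 2 carry a matching symbol but encode no ribosomal protein (Rps19bp1 and Rpl7l1). In the 5 cell classes compared below, 86 to 89 of the 91 passed the filter on low counts. Rpl10l had no UMI in any of them and Rpl36-ps4 had 1.

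The study profiled single mouse lung cells by droplet RNA sequencing, in which each captured RNA molecule is counted once by its unique molecular identifier (UMI). The mice were wild type (WT, C65BL6 as the design text spells it) or NOS1-/- (KO), which lack neuronal nitric oxide synthase. They received 10 mg/kg LPS, a bacterial cell wall product, into the peritoneum, or vehicle, and the lungs were taken after 4 h. All 6 libraries hold cells held back by a magnetic selection for CD45, a surface protein of blood-derived cells. There was 1 library each of KO vehicle and WT vehicle, and 2 each of KO LPS and WT LPS.

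Each cytosolic ribosome joins a small subunit, which reads the message, to a large subunit, which forms the peptide bond and carries a flexible stalk of the P proteins that recruits the elongation factors. The messages of these proteins are among the most abundant of most cells. They start with an unbroken run of pyrimidines (the 5′ terminal oligopyrimidine, or TOP, tract), through which growth signals hold their translation back or release it together. Ribosomal protein messages are known to be scarce in mature neutrophils and abundant in resting lymphocytes.

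The sequences at the annotated transcription starts of members on which the results turn are shown in their RefSeq form (GRCm38.p6), 15 bases before and 15 after the start, 5′ to 3′ on the gene's strand. The first pair is Rps27 and its retrogene copy Rps27rt, shown because the copy is described below beside its parent. Capitals mark the longest stretch shared within these 30 bases, 14 bases. Compared base by base in the genome, 21.0% of the 100 bases before that stretch are the same in both genes, and 79.6% of the 49 from its first base on.
Rps27 (chr3:90213634-90213663, minus strand): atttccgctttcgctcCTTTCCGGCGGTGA
Rps27rt (chr9:114982725-114982754, minus strand): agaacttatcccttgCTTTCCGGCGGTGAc
In the next set, capitals mark the longest run of C and T at or within 5 bases of the start. Rpl35 and Rpl38 are canonical members described in detail below. Rps27l, Rpl22l1 and Rpl36al are paralogs called higher with LPS in 4 of the 5 classes with TMM scaling (explained below), and Rpl7l1 is one of the genes that encode no ribosomal protein.
Rpl35 (chr2:39005117-39005146, minus strand): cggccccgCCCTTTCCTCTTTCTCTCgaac
Rpl38 (chr11:114668565-114668594, plus strand): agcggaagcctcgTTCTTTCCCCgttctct
Rps27l (chr9:66946071-66946100, plus strand): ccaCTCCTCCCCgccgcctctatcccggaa
Rpl22l1 (chr3:28805493-28805522, plus strand): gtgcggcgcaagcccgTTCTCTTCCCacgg
Rpl36al (chr12:69184053-69184082, minus strand): cattcccgtcgCTCaggttcagttccgact
Rpl7l1 (chr17:46782642-46782671, minus strand): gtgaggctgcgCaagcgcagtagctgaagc
The runs are 18 bases in Rpl35, 10 in Rpl38 and Rpl22l1, 9 in Rps27l, 3 in Rpl36al and 1 in Rpl7l1. The promoter table held 66 of the 91 members, 57 of them canonical. A run of 8 or more pyrimidines stood at or within 5 bases of the annotated start in 22 of those 57 (38.6%), against 11.0% of 27025 genes in the table. Runs lying wholly before the start were counted too, as in Rps27l, so this is not the share of messages that begin with such a run. The letters CCGGAAG, the core recognised by ETS-family factors, were found on either strand of the promoter in 42.1% of the canonical members and in 9.93% of all genes. Among canonical members, those with the long run and those without had median LPS changes (log2) of 0.18 and 0.13 in neutrophils, -0.21 and -0.25 in classical monocytes, 0.34 and 0.32 in alveolar macrophages, 0.19 and 0.11 in B cells, and 0.07 and 0.07 in T cells. The ranges between their quartiles overlapped in all 5 classes.

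The libraries held 8676 to 12362 barcodes and 55361477 to 115225284 UMIs each, and any pair of libraries shared 20 to 35 barcodes. Cells were assigned to classes by marker genes, none of them ribosomal. A class name below means the cells that passed its gate, 69.8% to 77.1% of the cells in each library. Nos1 itself had 0 to 5 UMIs per library (5, 4 and 4 in KO, 2, 0 and 1 in WT), too few to check the genotype labels. The libraries also differed in sex and in mitochondrial RNA. Of Xist and Ddx3y, which mark female and male cells, the WT vehicle library showed essentially Ddx3y alone, the KO vehicle and WT LPS libraries Xist alone, and the KO LPS libraries both. The median mitochondrial share was 4.18% and 4.32% with vehicle, 1.95% and 2.14% in KO LPS, and 0.546% and 0.801% in WT LPS. Sex therefore cannot be told apart from treatment within WT, nor from genotype under LPS. The labels do not say that the LPS replicates came from separate animals, so the p-values hold for the spread among the libraries at hand, and this may be technical.

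The members took 18.1% and 19.0% of all UMIs in the vehicle libraries and 9.72% to 10.8% in the LPS libraries, but the share depended first on the cell class. Averaged over the 6 libraries it was lowest in neutrophils (2.40%), followed by endothelial cells (7.03%), stromal cells (9.61%), nonclassical monocytes (12.2%), alveolar macrophages (12.3%), interstitial macrophages (14.0%), classical monocytes (15.6%), NK cells (18.8%), B cells (25.9%) and T cells (34.5%). Neighbours in this order overlapped in their ranges from stromal cells to NK cells, while neutrophils, endothelial cells, B cells and T cells each stood apart from the classes next to them in all 6 libraries.

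**Figure D1:**
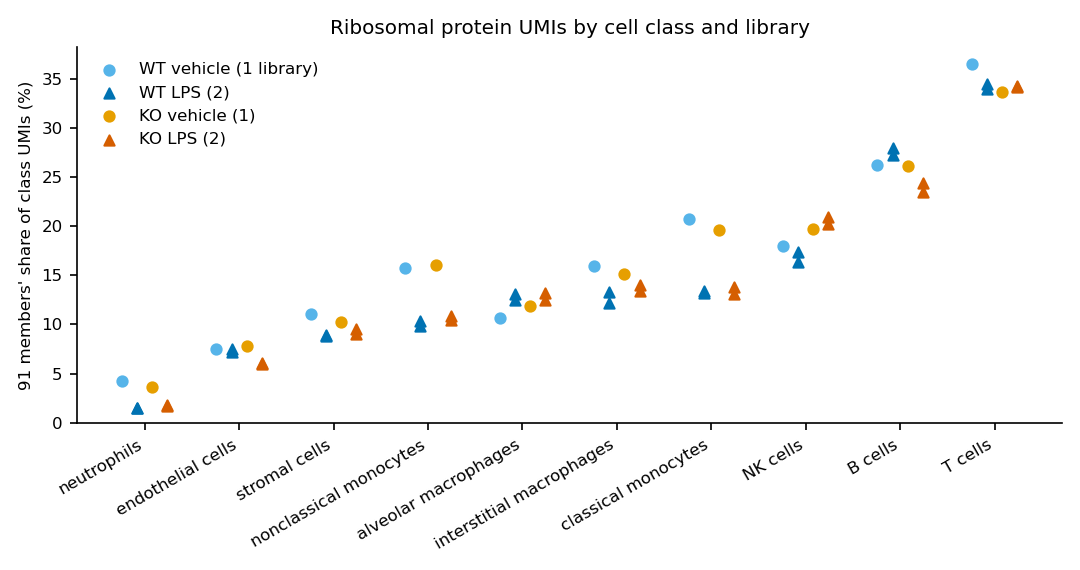
Share of a class's UMIs that fall on the 91 members (y axis, percent, from 0) in each library, for 10 cell classes (x axis). Each point is 1 library, blue for WT and orange for KO, circles for vehicle and triangles for LPS. The LPS libraries lie below both vehicle libraries in neutrophils, both monocyte classes, stromal cells and interstitial macrophages, and above them in alveolar macrophages.

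Classical monocytes, the inflammatory monocytes recruited from blood, had a smaller ribosomal protein share with LPS. It was 19.6% in KO vehicle and 20.7% in WT vehicle, against 13.1% and 13.8% in KO LPS and 13.4% and 13.2% in WT LPS. The LPS and vehicle libraries did not overlap, and the LPS mean was 0.665 of the vehicle mean. Nonclassical monocytes, which patrol the vessel wall, went the same way, from 15.7% and 16.1% to between 9.81% and 10.9%. That class held few cells with LPS, 45 and 37 in KO and 30 and 23 in WT, against 131 (KO) and 246 (WT) with vehicle. Only 2, 3, 1 and 1 of these LPS cells passed a stricter marker gate. Of classical monocytes that gate kept 96 of 784 and 113 of 609 in KO LPS. In WT LPS it kept 93 of 747 and 154 of 875, and with vehicle 157 of 280 (KO) and 186 of 309 (WT). The share of the classical monocytes kept was 19.8% and 20.6% with vehicle and 12.45% to 14.3% with LPS. Alveolar macrophages, the resident cells of the air spaces, had 11.9% and 10.6% with vehicle, and 13.2%, 12.5%, 13.1% and 12.4% with LPS, 1.14 times as much. The stricter gate kept 260 of 1070 and 313 of 816 of them in KO LPS. In WT LPS it kept 99 of 728 and 166 of 786, and with vehicle 651 of 1426 (KO) and 1115 of 1775 (WT). The share of the alveolar macrophages kept was 11.7% and 10.4% with vehicle and 12.1% to 13.45% with LPS. Among monocytes of 4000 to 8000 UMIs the share was 19.6% and 20.9% with vehicle and 10.3% to 11.7% with LPS, again without overlap. Among alveolar macrophages of that depth it was 11.4% and 10.7% with vehicle, and 12.8%, 12.3%, 12.4% and 10.9% with LPS. There the groups overlapped, since WT LPS replicate 2 lay below KO vehicle. An exact two-sided permutation test of 4 LPS against 2 vehicle libraries cannot give a p below 0.133, and gave that value in 6 of the 10 classes (0.222 after Benjamini-Hochberg adjustment over the 10).

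Neutrophils gave the largest relative fall in share, from 3.63% (KO) and 4.24% (WT) with vehicle to 1.68% and 1.81% in KO LPS and 1.50% and 1.52% in WT LPS, 2.42 times lower on average. The number of member UMIs per neutrophil did not fall with it. It was 80.3 and 63.9 with vehicle, 103 and 84.8 in KO LPS, and 104 and 76.9 in WT LPS, and the groups overlapped. The UMIs counted per cell were higher with LPS: the median neutrophil held 2190 and 1478 UMIs with vehicle and 3647 to 5424 with LPS. Over cells of all classes the median was 4783 and 3260 with vehicle and 4865 to 7238 with LPS. The part of library depth in these counts per cell was not tested. Cells with at least 2 genes of the immature granules, made in the bone marrow, were 5.84% and 3.08% of vehicle neutrophils and 48.9% to 57.6% of LPS neutrophils. Without those cells the ratio of LPS to vehicle was 0.402, against 0.413 with them. As a mark of free RNA, Cd79a, a B cell gene, reached 0.197% to 0.678% of its level per B cell in neutrophils, while the members reached 6.81% to 11.7% of theirs. The part of free RNA in the neutrophil share was not tested.

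Single genes were tested by quasi-likelihood in edgeR, p-values were adjusted over all genes by the Benjamini-Hochberg method, and a change was called at an adjusted p under 0.05. The values per library below are CPM (counts scaled to a common library total) after TMM scaling, which corrects for a few very abundant genes, in the order KO vehicle, WT vehicle, KO LPS 1 and 2, WT LPS 1 and 2. TMM scaling and plain library size differ strongly in neutrophils, so both are given there. Scaling to the members' own sum removes any shift they share, and compares members only with each other: it gave 35 higher and 24 lower in classical monocytes with LPS (42.5% and 20.0% of all genes), and 22 higher and 20 lower in alveolar macrophages (11.3% and 57.2%).

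In neutrophils the direction of the members as a family depended on the scaling. With TMM, 37 of 88 were higher and 23 lower with LPS, where 29.1% of all 12110 genes were higher and 20.3% lower, and the median change was 0.14 for the members and 0.40 for all genes (log2). With plain library size, 2 were higher and 83 lower, against 9.67% and 48.4% of all genes, with medians of -1.23 and -0.96. Under either scaling the members' median lay below that of all genes. With a stricter marker gate and TMM the members split into 16 higher and 40 lower. Rps20, a protein of the head of the small subunit, was higher under both scalings: 129 and 101 with vehicle, 286 and 319 in KO LPS, and 401 and 393 in WT LPS. All 4 LPS libraries lay above both vehicle libraries, with a log2 change of 1.60 ± 0.06 (SE; edgeR adjusted p = 1.05e-09), or 0.23 under plain library size (edgeR adjusted p = 0.0107). Rpl17, which lines the exit tunnel of the large subunit, was the member that fell most among those above 50 CPM: 476 and 603 with vehicle, and 279, 321, 297 and 302 with LPS. Its log2 change was -0.84 ± 0.05 with TMM and -2.21 with plain library size, and the groups did not overlap.

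Other members with large changes in neutrophils moved in both directions under TMM. Rpl3, which sits near the peptidyl transferase centre, went from 50.2 and 39.5 to 80.0, 101, 84.7 and 86.7 (log2 change 0.98 with TMM, -0.39 with plain library size, each called). The stalk base Rplp0 went from 241 and 202 to between 311 and 349 (0.61 and -0.76, each called). Rpl11, which can bind the p53 regulator Mdm2 when free of the ribosome, went from 246 and 286 to between 169 and 205 (-0.53 and -1.90). For Rpl3 and Rplp0 the sign thus turns with the scaling, and for Rpl11 it does not.

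Classical monocytes had lower levels of ribosomal protein messages across both subunits with LPS. Of 88 members 53 were lower and 9 higher (27.9% and 31.8% of 11429 genes), with a median change of -0.25 against 0.04 for all genes. Plain library size gave 76 lower and 3 higher (38.3% and 23.3% of all genes). The KO contrast taken alone gave 58 lower and 3 higher (21.3% and 24.7%), and the WT contrast 44 lower and 19 higher (23.2% and 26.9%). Of the canonical proteins, 51 of 77 fell and 4 rose. The small-subunit protein Rps4x, encoded on the X chromosome, had 2675 and 2898 with vehicle against 1483, 1669, 1566 and 1645 with LPS, a log2 change of -0.81 ± 0.06 (edgeR adjusted p = 2.59e-08). Every LPS library lay below both vehicle libraries. Monocytes with at least 2 cell cycle genes were 6.43% and 6.80% of the class with vehicle and 21.0% to 25.5% with LPS, and 13 of 13 cell cycle genes were higher (median log2 change 4.21). The neutrophil gene S100a8 had 16.1 and 42.3 CPM of plain library size in monocytes with vehicle and 595 to 673 with LPS. The part of cycling cells and of free or neutrophil RNA in the monocyte changes was not tested.

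The falls in monocytes included proteins with roles outside the ribosome. Rpsa, also known as a laminin receptor, changed by -0.59, Rps3, which has a part in NF-κB binding and DNA repair, by -0.67, and Rpl13a, part of a complex that silences inflammatory messages, by -0.50 (log2, each called by edgeR). Rps19 and Rpl11 each changed by -0.32. The stalk was split: Rplp0 fell by 0.66 on the log2 scale, while Rplp1 (-0.11) and Rplp2 (0.06) did not pass the test. Rps6, the target of S6 kinase, changed by 0.03 and did not pass. The members that rose were mostly not canonical, as described below.

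Alveolar macrophages showed the opposite. With LPS, 83 of 89 members were higher and 0 lower, where 27.4% of 12328 genes were higher and 26.4% lower, and the members' median change was 0.32 against -0.02 for all genes. Plain library size gave 63 higher and 2 lower (19.0% and 39.1% of all genes), with medians of 0.17 and -0.16. The count of 0 lower members was also 0 by DESeq2 and 0 at an unadjusted p under 0.05. Rpl38, a small protein of the large subunit that takes part in the translation of Hox messages, had 1010 and 712 with vehicle, 1386 and 1148 in KO LPS, and 1631 and 1405 in WT LPS (log2 change 0.71 ± 0.07, edgeR adjusted p = 5.19e-07). Every LPS library lay above both vehicle libraries, and the KO vehicle library lay above the WT one. Rps29 and Rps27, zinc-finger proteins of the small subunit, rose by 0.68 and 0.67. All 3 have transcripts under 500 bases, a feature taken up with the genotypes below. Of the stalk, Rplp2 rose by 0.48 and Rplp1 by 0.28 (-0.06 scaled to the members' own sum), while Rplp0 (0.09) did not pass the test.

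**Figure D2:**
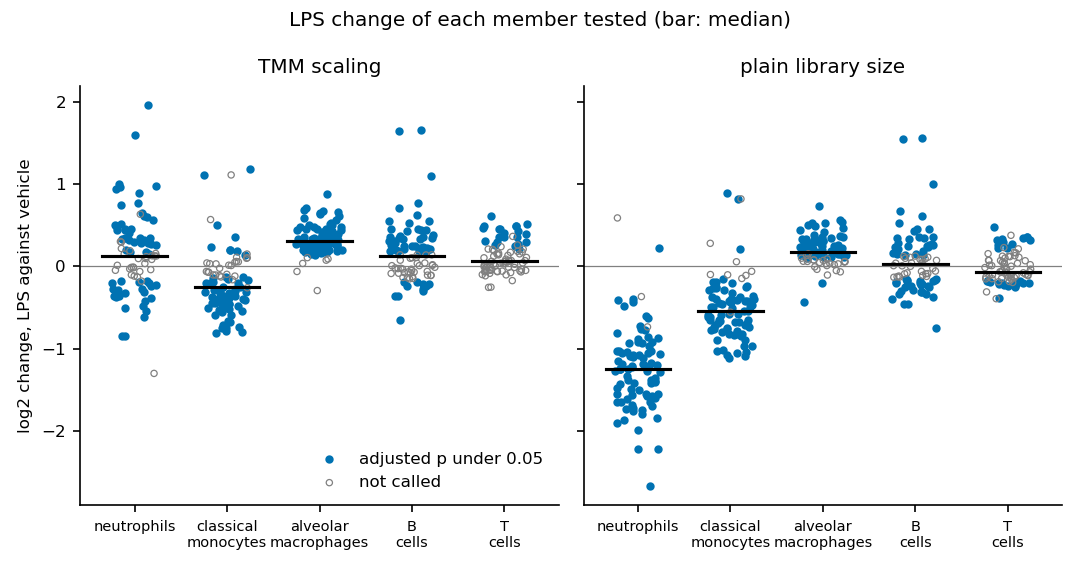
Log2 change with LPS of each member tested (y axis) in 5 cell classes (x axis), with TMM scaling on the left and plain library size on the right; filled points passed an adjusted p of 0.05, bars are medians, and Rpl9-ps1, absent from vehicle neutrophils, is left out. The neutrophil median changes sign between the panels, and so does that of T cells, while monocytes lie mostly below and alveolar macrophages mostly above 0 in both.

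In B cells the members' share did not separate LPS (23.4% to 28.0%) from vehicle (26.2% and 26.3%), and the genotypes went apart, as described below. Averaged over genotypes, 39 of 86 members rose and 11 fell (32.6% and 33.4% of 11152 genes), and plain library size gave 30 and 27 (29.5% and 37.9%). Without KO LPS replicate 2 the falls were 21, and without WT LPS replicate 2 they were 7. Within WT alone, 45 rose and 5 fell (29.9% and 29.1% of all genes) with a median change of 0.26, and within KO alone 5 rose and 11 fell (25.0% and 22.7%) with a median of -0.08. The KO contrast had 7 rises and 33 falls without KO LPS replicate 2, and 12 and 10 without KO LPS replicate 1. The largest rises above 50 CPM were in Rps27l, Rps19bp1 and Rpl7l1, none of them a canonical protein. In T cells 22 of 86 members rose and 0 fell (18.2% and 15.6% of 9144 genes), led by Rpl38 (0.61), Rps27l (0.51) and Rps28 (0.49). Plain library size gave 12 rises and 16 falls there (13.8% and 20.7% of all genes), and the stricter gate 14 and 16, so that the direction in T cells rests on the scaling and on the gate. Without KO LPS replicate 1, 14 T cell members rose. With TMM, 0 members fell by DESeq2 also, and 0 did at an unadjusted p under 0.05.

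The genes that build ribosomes were followed from a list of 28 assembly factors. With LPS, 28 of 28 rose in B cells (median log2 change 2.20), 27 in alveolar macrophages (0.79), 23 in classical monocytes (1.00), 14 in neutrophils (1.34) and 12 in T cells (0.42), and 1 fell in each of monocytes and neutrophils. Of all genes, 32.6% rose in B cells, 27.4% in alveolar macrophages, 31.8% in monocytes, 29.1% in neutrophils and 18.2% in T cells. All list counts are with TMM scaling and were not taken with plain library size. Under plain library size 9.67% of all neutrophil genes rose and 48.4% fell, so the direction of the lists in neutrophils may rest on the scaling. Nop58, a core protein of the particles that methylate ribosomal RNA, rose by 2.84 in B cells and by 2.37 in classical monocytes, where most ribosomal proteins fell. Ncl, the nucleolar protein nucleolin, rose by 2.82 and 1.38 in these classes. The proteins of the mitochondrial ribosome, 78 on the list, had 64 rises and 3 falls in B cells (33.4% of all genes fell there), 38 and 7 in alveolar macrophages (26.4%), 36 and 10 in monocytes (27.9%), 15 and 23 in neutrophils (20.3%), and 8 and 7 in T cells (15.6%). Translation factors whose messages also carry a TOP tract, 17 on the list, had 2 rises and 10 falls in monocytes and 14 and 0 in alveolar macrophages. Gas5, a TOP message that hosts small nucleolar RNAs, fell by 1.86 on the log2 scale in monocytes and rose by 0.51 in alveolar macrophages. Fau and Rack1, ribosomal proteins that the symbol rule does not take, fell in monocytes (-0.51 and -0.44) and rose in alveolar macrophages (0.33 and 0.21).

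Among the paralogs, Rpl36al, an autosomal copy of the X-linked Rpl36a, had 937 and 856 in vehicle monocytes and 1280, 1235, 1319 and 1243 in LPS monocytes, a log2 change of 0.50 ± 0.05 (edgeR adjusted p = 2.31e-06). Every LPS library lay above both vehicle libraries, whereas Rpl36a changed by 0.06 there and did not pass the test. Rpl36al also rose in alveolar macrophages (0.41, against 0.50 for Rpl36a) and B cells (0.78, against 0.34). In neutrophils it rose by 0.97 with TMM and fell with plain library size (-0.40). Its annotation overlaps Gm49383 on the same strand, so that its reads may be split. Rpl22l1, which Rpl22 is known to repress, had 354 and 278 in vehicle monocytes and 366, 373, 444 and 426 with LPS (0.35 with TMM, and 0.06 with plain library size, which ended the call), while Rpl22 changed by -0.25. Rpl22l1 rose in alveolar macrophages (0.45) and B cells (0.44) as well, and in neutrophils by 1.00 with TMM, where plain library size gave -0.37 and no call. The difference between a paralog and its parent was not tested.

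Rps27l, a paralog of Rps27 and a known target of p53, rose in B cells. It had 120 and 92.5 with vehicle, 247 and 240 in KO LPS, and 456 and 444 in WT LPS. The 3 levels did not overlap, and the change averaged over genotypes was 1.65 ± 0.08 (log2, edgeR adjusted p = 1.72e-14). Rps27 itself had 3878 and 3142, then 3035 and 2589, then 3938 and 3537, and did not pass the test (-0.11). In T cells Rps27l rose by 0.51 with TMM, but its groups overlapped and plain library size ended the call. In monocytes it rose by 0.20 and in alveolar macrophages by 0.14 with TMM, and plain library size turned both signs, to -0.10 and -0.0044, without a call. In neutrophils it fell under both scalings (-0.47 with TMM and -1.84 with plain library size).

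**Figure D3:**
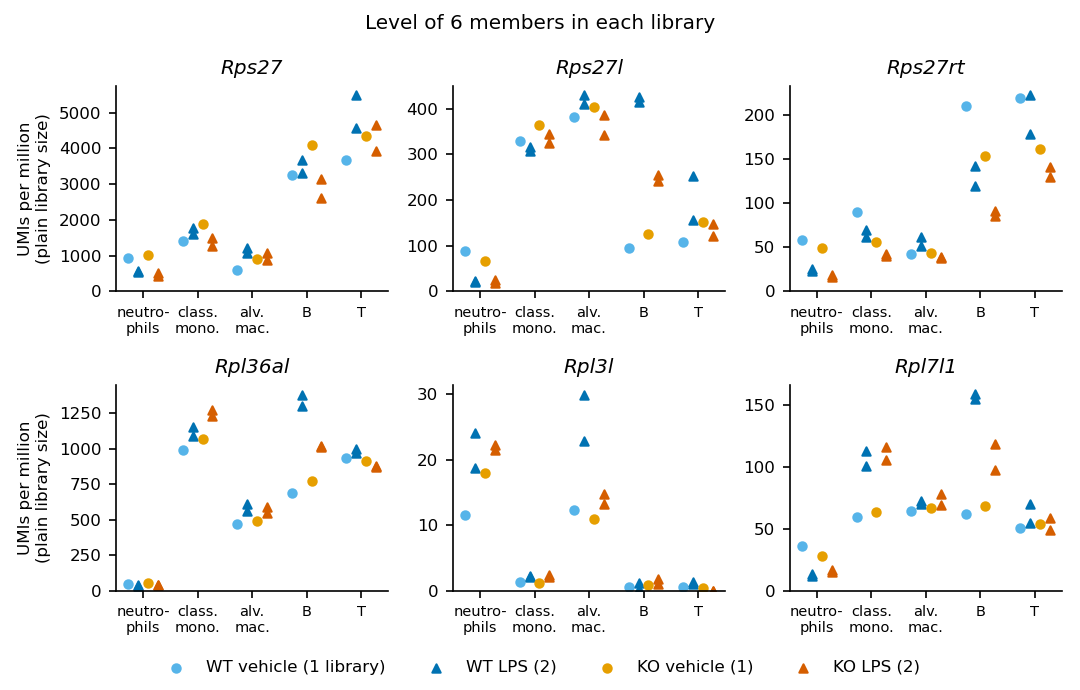
Level of 6 members (y axes, CPM of plain library size, from 0) in 5 cell classes (x axis), 1 point per library, blue for WT and orange for KO, circles for vehicle and triangles for LPS. Rpl7l1 stands highest in WT LPS B cells, and Rpl3l lies under 3 in monocytes, B cells and T cells.

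Rpl3l, a paralog of Rpl3 known from striated muscle, at chr17:24727820-24736143 (GRCm38, plus strand), was counted mainly in neutrophils and alveolar macrophages. It had 2122 UMIs in neutrophils and 1194 in alveolar macrophages, against 70 in monocytes, 23 in B cells and 6 in T cells. In neutrophils it had 10.2 and 5.73 with vehicle, 26.6 and 27.2 in KO LPS, and 37.0 and 28.5 in WT LPS (log2 change 1.96 with TMM, called, and 0.59 with plain library size, not called). In alveolar macrophages the WT LPS libraries (32.0 and 24.2) lay above the KO LPS ones (14.6 and 13.4), a log2 difference of -1.01 ± 0.13 (edgeR adjusted p = 3.48e-05). The gene ends 499 bases before Msrb1 on the same strand. In CPM of plain library size, Msrb1 was also highest in neutrophils among these classes (2284 to 4441), with 757 to 1026 in monocytes, 846 to 931 in alveolar macrophages and 51.0 to 62.8 in B cells. Whether reads of one gene were counted to the other was not tested.

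The retrogenes and pseudogenes are close copies, so that reads can be counted to the parent or to the copy, and their values are uncertain. Rps27rt (chr9:114982366-114982739, minus strand, inside an intron of Osbpl10 on the opposite strand) is 98.8% identical to the Rps27 transcript over 345 bases, with an identical run of 337. Rpl10-ps3 is 97.2% identical to Rpl10, Rpl36a-ps1 97.1% to Rpl36a, and Rpl9-ps6 96.8% and Rpl9-ps1 94.8% to Rpl9. With LPS, Rps27rt fell in B cells (-0.64), and rose in alveolar macrophages with TMM (0.28) but not with plain library size (0.14, no call) or scaled to the members' own sum (-0.06, no call). Rpl10-ps3 fell in monocytes (-0.78), B cells (-0.36) and neutrophils (-0.84). Without WT LPS replicate 2 the calls in B cells (-0.27) and neutrophils (-0.81) were lost.

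Rpl9-ps1 stood higher with LPS in neutrophils and alveolar macrophages. Vehicle alveolar macrophages had 0.26 and 0.07 CPM of plain library size, and LPS ones 0.55 to 1.51. Monocytes had 0 and 0.66 with vehicle and 0.50 to 0.92 with LPS, which overlap. B cells and T cells had 1 UMI each, in a vehicle library. In neutrophils it had 0 UMIs in both vehicle libraries and 375 in the 4 LPS libraries. Against a floor of 3 counts over the vehicle libraries together, it was at least 2.23-fold higher with LPS. It lies 2223 bases from the chemokine gene Ccl3 on the same strand. Ccl3 had 28.6 and 90.6 CPM of plain library size in vehicle neutrophils and 2661 to 4183 in LPS neutrophils. In NK cells Ccl3 reached 2426 to 6643 with LPS, and Rpl9-ps1 had 0 UMIs there.

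The 2 genes that only share the naming pattern rose in monocytes, where most canonical members fell. Rpl7l1, an assembly factor of the large subunit in the nucleolus, had 55.7 and 51.6 with vehicle and 106, 117, 115 and 128 with LPS (log2 change 1.11 ± 0.10, edgeR adjusted p = 4.23e-07). Rps19bp1, which binds Rps19 and is also known as a regulator of Sirt1, had 19.1 and 23.5, then 51.3, 50.5, 42.7 and 48.7 (1.19 ± 0.14). In both genes the LPS and vehicle libraries did not overlap. In B cells Rpl7l1 had 64.5 and 60.1 with vehicle, 114 and 96.8 in KO LPS, and 166 and 169 in WT LPS. Rps19bp1 had 34.0 and 32.5, then 82.3 and 81.2, then 131 and 132, the same order. Neither passed the LPS test in T cells, nor in neutrophils with TMM.

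Under LPS, KO B cells had lower ribosomal protein messages than WT B cells. The members' share was 23.4% and 24.4% in KO and 28.0% and 27.2% in WT, without overlap. Of 86 members 73 were lower in KO and 0 higher, where 16.5% of all genes were lower and 13.4% higher, and the members' median difference was -0.38 against 0.03 for all genes. DESeq2 gave 72 lower and 0 higher, and no member was higher at an unadjusted p under 0.05. Plain library size gave 51 lower (11.6% of all genes), the stricter gate 52, and leaving out WT LPS replicate 1 gave 46. Scaled to the members' own sum, 14 were lower and 7 higher (5.77% and 30.5% of all genes). Of the canonical proteins 65 of 77 were lower, and so were all 3 stalk proteins, by -0.45 (Rplp0), -0.49 (Rplp1) and -0.56 (Rplp2) on the log2 scale.

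Rpl14, of the large subunit, had 1374 and 1566 in vehicle B cells, 1438 and 1634 in KO LPS, and 2505 and 2580 in WT LPS. The WT LPS libraries stood above all others, with a difference of -0.73 ± 0.09 (log2, edgeR adjusted p = 8.32e-07). Rps6 had 1296 and 1454, then 1243 and 1351, then 2077 and 2020 (-0.66). Rpl5, which with Rpl11 and the smallest RNA of the large subunit forms the particle that binds Mdm2, differed by -0.65. In both, the WT LPS libraries were again the highest.

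**Figure D4:**
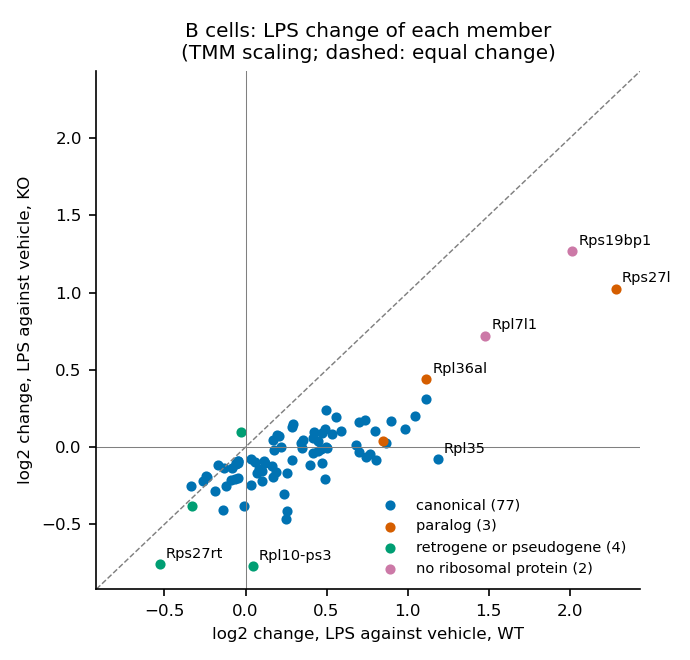
Log2 change with LPS of each member in B cells, in WT (x axis) and in KO (y axis), TMM scaling, coloured by kind of gene; the dashed line marks equal change. Nearly all points lie below the line, and Rpl35 and Rps27l, with 1.26 less in KO, are among the farthest; each vehicle arm is 1 library, on which both axes rest.

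The same B cells differed between genotypes in other genes of the ribosome. Of the 28 assembly factors, 28 were lower in KO LPS (median -0.81), among them Nop56 (-1.38) and Fbl (-1.05). So were 43 of 78 mitochondrial ribosomal proteins and 13 of 17 TOP-message factors, with 0 higher in either list. Of all B cell genes 16.5% were lower and 13.4% higher. The assembly list did not go with the members in every class: in monocytes, where 48 members were lower in KO, 15 of the 28 were higher and 1 lower (median 0.28, against 13.7% and 15.6% of all genes), and in alveolar macrophages 15 were lower (median -0.22, against 17.0%). In B cells the 13 cell cycle genes had 1 higher and 1 lower, with a median of 0.03. B cells with at least 2 cell cycle genes were 9.06% and 5.84% with vehicle, 15.3% and 13.3% in KO LPS, and 25.3% and 22.4% in WT LPS. Depth differed as well, since the median B cell held 2953 and 2240 UMIs in KO LPS and 4308 and 2996 in WT LPS. Among B cells of 4000 to 8000 UMIs the members' share was 24.7% and 24.6% in KO LPS and 27.9% and 28.5% in WT LPS. Among those of 2000 to 4000 it was 22.4% and 25.4% against 24.2% and 26.0%, which overlap. S100a8, a neutrophil gene and here a mark of free RNA, had 0.0745 and 0.0901 UMIs per B cell with vehicle, 1.47 and 0.804 in KO LPS, and 1.89 and 3.68 in WT LPS. The part of cycling cells, depth and free RNA in the genotype difference was not tested.

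In the other classes tested for single genes, fewer members were called between genotypes under LPS, or the direction depended on the scaling. In monocytes 48 of 88 members were lower in KO and 0 higher (15.6% and 13.7% of all genes), with a median of -0.18, and 0 were higher by DESeq2 and at an unadjusted p under 0.05. Plain library size gave 6 lower and 2 higher (8.32% and 25.8% of all genes), the stricter gate 12 lower, and leaving out WT LPS replicate 1 gave 26. In alveolar macrophages 17 were lower and 1 higher (17.0% and 13.3% of all genes), with a median of -0.07. There the stricter gate left 2 called, leaving out KO LPS replicate 2 or WT LPS replicate 1 left 9, and leaving out WT LPS replicate 2 gave 30. In neutrophils 27 were lower and 2 higher with TMM (14.5% and 12.1% of all genes), but 2 lower and 62 higher with plain library size (5.66% and 37.5%). With TMM, leaving out KO LPS replicate 1 gave 19 lower and 18 higher in neutrophils, so that the direction rests on that library too. Leaving out KO LPS replicate 2 gave 49 lower and 2 higher there, and leaving out WT LPS replicate 1 gave 12 called, all lower. In T cells 2 were lower, Rps27rt and Rps27l, and 0 higher (1.74% and 1.12% of all genes). At an unadjusted p under 0.05, 7 T cell members were lower and 0 higher, and DESeq2 called 0 in either direction. Leaving out either KO LPS library or WT LPS replicate 1 brought the T cell calls to at most 1. NK cells, not tested for single genes, differed from B cells in direction. Their members' share was 20.3% and 20.9% in KO LPS and 16.4% and 17.4% in WT LPS. Endothelial cells had 5.99% and 6.13% against 7.53% and 7.23%. The KO share was also higher, without overlap, in neutrophils, stromal cells, nonclassical monocytes and interstitial macrophages. Genotypes overlapped in classical monocytes, alveolar macrophages and T cells.

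Rps27rt was the 1 member called lower in KO in all 5 classes. Under LPS in monocytes it had 39.8 and 42.7 in KO and 80.0 and 71.1 in WT, and with vehicle 49.4 in KO and 78.5 in WT. All KO libraries thus lay below all WT libraries, and the difference under LPS was -0.88 ± 0.09 (log2, edgeR adjusted p = 5.62e-06). It was -0.83 in neutrophils, -0.66 in alveolar macrophages, -0.71 in B cells and -0.63 in T cells, where plain library size ended the call (edgeR adjusted p = 0.0757). Rps27 differed by -0.53, -0.47, -0.31 and -0.41 in neutrophils, monocytes, alveolar macrophages and B cells. In vehicle B cells Rps27 had 3878 in KO and 3142 in WT, while Rps27rt had 146 and 203. Rpl9-ps6 was lower in KO LPS in 4 classes and Rpl10-ps3 in 3.

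The LPS response itself was tested for a difference between genotypes, which rests on 1 vehicle library of each, and these differ in sex marks. In B cells the response was lower in KO for 34 of 86 members and higher for 0 (8.18% and 5.79% of all genes; DESeq2 gave 31 and 0, and 0 were higher at an unadjusted p under 0.05). Without KO LPS replicate 2 there were 58 calls in B cells, and without WT LPS replicate 1 there were 22. Lower responses in KO were called for 15 members in monocytes (3.38% of all genes), 24 in alveolar macrophages (5.93%) and 9 in neutrophils (4.34%). Higher ones were called for 2 in neutrophils (1.78%) and 1 in T cells (0.448%), against 2.70% of all genes in monocytes and 5.08% in alveolar macrophages, where no member was called higher. In T cells 0.886% of all genes and no member had a lower response. DESeq2 also called 0 in these 3 cases, and at an unadjusted p under 0.05 edgeR gave 1, 1 and 6 members. The stricter gate left 0 in monocytes, where DESeq2 called 13 and 16 were lower at an unadjusted p under 0.05 with that gate. In neutrophils plain library size called 41 higher and 0 lower (11.0% and 1.45% of all genes). With TMM, neutrophils had 16 higher and 12 lower without KO LPS replicate 1 (median 0.08, against -0.02 with all libraries), which turned the direction, and 4 higher and 14 lower without KO LPS replicate 2.

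Rpl35, which lies near the opening of the exit tunnel, had a large difference in B cells. It had 1323 in KO vehicle and 678 in WT vehicle, 1473 and 1029 in KO LPS, and 1557 and 1527 in WT LPS. The difference between the responses was -1.26 ± 0.19 (log2, edgeR adjusted p = 0.000131). The WT vehicle library was the lowest of the 6, and the KO vehicle library lay among the LPS ones. In plain CPM Rpl35 was 1.99 times higher in the KO than in the WT vehicle B cells (95% interval 1.92 to 2.07, counting error only, 1 library each). The sex marks of these libraries differed as well.

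The vehicle libraries differed along transcript length. Across the 77 canonical members in alveolar macrophages, the log2 ratio of KO vehicle to WT vehicle went with the median annotated transcript length by Spearman's rho = -0.640, and in the other classes by -0.335 (neutrophils) to -0.571 (T cells). Across all genes of a class the same rho was -0.0241 to 0.0524. The 12 canonical members under 500 bases had a median log2 ratio of 0.33 in alveolar macrophages and the 65 longer ones 0.08. The pattern also appeared between replicates of 1 group: KO LPS replicate 1 over replicate 2 gave rho = -0.402 to -0.476, and WT LPS replicate 1 over 2 gave -0.402 to -0.613. The genotype difference of the LPS response had rho = 0.395 to 0.650. The difference of KO from WT under LPS had rho = 0.317 (B cells) to 0.502 (classical monocytes). In B cells its median was -0.45 for the 12 short members and -0.32 for the 65 longer ones. The LPS change averaged over genotypes also went with length. Its rho was -0.64 in alveolar macrophages, -0.62 in T cells, -0.40 in monocytes, -0.29 in B cells and -0.11 in neutrophils. These are correlations across genes of the same libraries, which are not independent replicates. In B cells the LPS change within WT had a median of 0.63 for the short members and 0.21 for the longer ones, and within KO -0.03 and -0.09. Alveolar macrophages had 0.80 and 0.38 within WT, and 0.24 and 0.23 within KO. The part of transcript length in these differences was not tested.

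**Figure D5:**
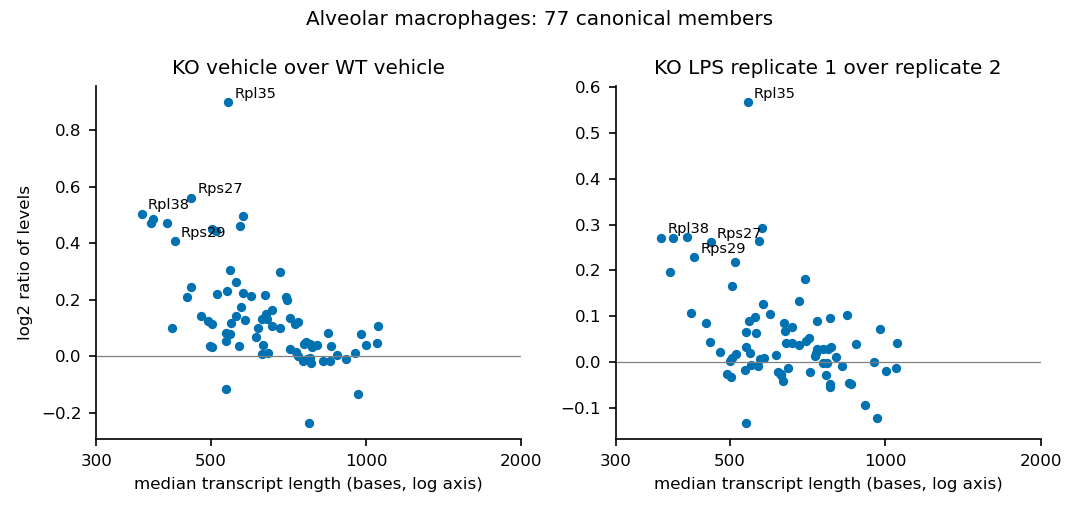
Log2 ratio of levels in alveolar macrophages (y axes) against median annotated transcript length (x axes, bases, log axis) for the 77 canonical members, for KO vehicle over WT vehicle on the left and for KO LPS replicate 1 over replicate 2 on the right. The ratio is higher for shorter transcripts in both panels, with rho = -0.640 and -0.402.

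Between classes of the same libraries most members differed in 1 direction. Compared with classical monocytes, 83 of 87 members were lower in neutrophils and 1 higher (43.7% and 34.5% of 10157 genes), with a median of -2.08 against -0.24 for all genes. The 1 higher was Rpl3l (4.63 ± 0.17, log2). In alveolar macrophages 74 of 88 were lower than in monocytes and 3 higher (28.8% and 32.5% of 11093 genes), with a median of -0.64 against 0.05, but plain library size left 28 lower and 4 higher (18.5% and 45.4%). The 3 higher were Rpl3l (2.82), Rpl39l (2.07) and the stalk protein Rplp1 (0.52). Rpl36al was lower than in monocytes in both (-3.72 in neutrophils and -1.38 in alveolar macrophages). In T cells 79 of 86 members were higher than in B cells and 2 lower (18.1% and 14.9% of 9619 genes), with a median of 0.54 against -0.01. Rplp1 was 1.04 ± 0.08 higher in T cells (log2), and higher in 6 of 6 libraries. The 2 lower genes were Rps19bp1 (-1.05) and Rpl7l1 (-0.70), neither of which encodes a ribosomal protein. These tests kept the library as a block, and the markers that made the classes held no member.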

How the data were processed

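Droplet RNA sequencing was done on CD45-selected lung cells of 6 libraries. The authors deposited UMI counts per gene and barcode, made with Cell Ranger 6.1.0 on mm10, and used Seurat 4.1.0 and R 4.1.3, per the submitters' processing notes. The annotation release is not named in the labels. Deposited values are whole numbers and were not normalized.

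Cells with at least 200 genes and at most 10% mitochondrial UMIs were kept. A cell entered a class with at least 3 of its markers and a runner-up class of at most 0.5 of the best; S100a8, S100a9 and Pou2f2 were not counted as markers, a choice made after they were found across classes; cells with markers of several classes were left out, which stands in for a doublet caller. The stricter gate asked for at least 4 markers and at most 1 of another class. Counts were summed per class and library and tested with edgeR 4.0.16 (limma 3.58.1, R 4.3.3; TMM, filterByExpr, quasi-likelihood test) on 4 group coefficients, which leaves 2 residual degrees of freedom, over all genes, with Benjamini-Hochberg adjustment. Comparisons between classes kept the library as a block. Errors after ± are standard errors. KO and WT vehicle, 1 library each, were not tested against each other.

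Alternatives were DESeq2 1.42.0, plain library size, no low-count filter, the replicate number as a block, the stricter gate, scaling to the members' sum, leaving out each LPS library, leaving out granule-gene or cycling cells, and, chosen after seeing the data, the contrast within 1 genotype. Named genes were, per class and comparison, the 3 largest rises and 3 largest falls among called members whose higher group reached 50 CPM, and always the paralogs, retrogenes and pseudogenes with their parents, the genes of other function, the stalk, Rpsa, Rpl13a, Rps3, Rpl5, Rpl11, Rps6 and Rps19; others were named after their values were seen. Some genes are not reported here by name. The members and gene lists were chosen with earlier results of these data known. Sequences came from the RefSeq promoter table (GRCm38.p6), and copies were aligned to parents with edlib 1.3.9.post1 (Python 3.11.15, scipy 1.17.1). The scripts were tested on simulated data.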

Additional observations from a re-analysis of the deposited data

Results flagged for a closer look

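Members whose LPS response differed most between genotypes are given as the response in KO minus that in WT (log2, interaction term of edgeR's quasi-likelihood test, adjusted p under 0.05). Each value rests on 1 vehicle library per genotype. In neutrophils it was 0.486 for Rpl13a, 0.299 for Rpl30, -0.842 for Rps27, -0.743 for Rps20 and -0.738 for Rps29. In classical monocytes it was -0.903 for Rps27, -0.829 for Rpl35 and -0.774 for Rpl38. In alveolar macrophages it was -0.872 for Rps27, -0.837 for Rpl35 and -0.764 for Rpl38. In B cells it was -1.264 for Rpl35, -1.256 for Rps27l and -0.886 for Rpl37. In T cells it was 0.630 for Rplp0.

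Rpl37 had 2781 in KO vehicle and 2114 in WT vehicle B cells, 2729 and 2522 in KO LPS, and 3875 and 3502 in WT LPS. Rps27 in alveolar macrophages had 827 in KO vehicle and 561 in WT vehicle, 1059 and 884 in KO LPS, and 1286 and 1124 in WT LPS. In both genes the WT vehicle library was the lowest of the 6.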

How the results depend on the processing

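Of 1075 alternative values for 112 results on single members, 948 kept their direction and call, 117 kept the direction but lost the call, and 10 changed sign. With plain library size the LPS change became -0.39 for Rpl3, -0.40 for Rpl36al, -0.37 for Rpl22l1 and -0.76 for Rplp0 in neutrophils, -0.10 for Rps27l in monocytes and -0.0044 for it in alveolar macrophages. Scaled to the members' sum, Rpl22 in monocytes became 0.044, and in alveolar macrophages Rps27l became -0.20, Rplp1 -0.058 and Rps27rt -0.061. The cause of the changes below was not tested.

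For LPS, plain library size gave 2 members higher and 83 lower in neutrophils (median -1.23), 3 higher in monocytes, 2 lower in alveolar macrophages, 27 lower in B cells, and 12 higher and 16 lower in T cells (median -0.066). Between genotypes under LPS it gave 64 calls in neutrophils (median 0.22), 8 in monocytes (median 0.0017), 9 in alveolar macrophages (median 0.018) and 0 in T cells. For the difference in response it gave 41 calls in neutrophils, 7 in monocytes and 0 in T cells, and between alveolar macrophages and monocytes 32.

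The stricter gate gave, for LPS, 16 higher and 40 lower in neutrophils (median -0.14), 3 higher in monocytes, 19 lower in B cells, and 14 higher and 16 lower in T cells (median -0.056). It gave 12 calls between genotypes in monocytes, 2 in alveolar macrophages and 0 in T cells. For the difference in response it gave 0 in monocytes, 5 in alveolar macrophages, 22 in B cells and 12 in T cells. The share ratio of LPS to vehicle became 0.333 in neutrophils and 0.948 in T cells.

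DESeq2 gave, for LPS, 14 lower in neutrophils, 6 lower in B cells and 14 higher in T cells. It gave 15 calls between genotypes in neutrophils, 8 in alveolar macrophages and 0 in T cells, and for the difference in response 6, 5 and 0. With no low-count filter 15 were higher with LPS in monocytes, and the difference in response had 18 calls in neutrophils and 2 in T cells. Within KO alone 15 fell in neutrophils, 3 rose in monocytes, 1 fell in alveolar macrophages, 5 rose in B cells and 6 rose in T cells. Within WT alone 19 rose in monocytes, 1 fell in alveolar macrophages, 5 fell in B cells and 6 fell in T cells.

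The labels tie same-numbered LPS libraries of the genotypes by their number only. The deviations of replicate 1 from replicate 2 correlated between genotypes by -0.0477 to 0.0889 over all genes. Over the members the correlation was positive in each class compared, from 0.0844 (monocytes) to 0.402 (alveolar macrophages). Whether the number stands for a shared batch was not tested. With the replicate number as a block, 1 member was lower with LPS in alveolar macrophages, 37 were called there between genotypes and 42 for the difference in response, with 2 for that in T cells. In neutrophils the members higher in KO went from 2 to 5; no other total of calls moved by over 1.5 times.

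Leaving out each LPS library in turn gave, for LPS, 7 to 21 lower in B cells, and 14 to 26 higher and 0 to 1 lower in T cells. Between genotypes it gave 12 to 51 calls in neutrophils, 26 to 58 in monocytes, 9 to 30 in alveolar macrophages, 46 to 83 in B cells and 0 to 3 in T cells. For the difference in response it gave 10 to 28 in neutrophils, 22 to 58 in B cells and 0 to 3 in T cells. With 1 library left in a group, its spread is taken to be that of the others. Leaving out a vehicle library leaves that group empty and was not run. Depth limits Rpl39l, Rpl36a-ps1 and Rpl9-ps1, which had few UMIs in most classes.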
